A study of Mus musculus with 21 samples.

Results

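Genes that neutrophils are known for were followed through 21 RNA-seq libraries of brain myeloid cells from mice with traumatic brain injury (TBI). The 10 genes were Lcn2, Ly6g, Ngp, Camp, Mmp8, Mmp9, Retnlg, Csf3r, Elane and Mpo, chosen by name from the 45706 genes of the deposited count table, and all 10 were found there. No threshold on measured values was used for the choice, but earlier results of these data were known when it was made. The injury was a controlled cortical impact, and sham mice had anesthesia, a scalp incision and a craniotomy without an impact. Male mice of 17 to 24 weeks were either C57BL/6 wildtype (WT) or homozygous Fgg γ390–396A knock-in mice (Fgg), whose fibrinogen lacks the binding motif for the integrin CD11b/CD18. Microglia (Mg) were sorted as CD45low CD11b+ cells and infiltrating myeloid cells (Mp) as CD45hi CD11b+ cells. The 7 groups of 3 libraries were sham WT microglia (Sham_Mg), WT and Fgg microglia at 1 d (WT_1d_Mg, Fgg_1d_Mg) and at 7 d (WT_7d_Mg, Fgg_7d_Mg), and WT and Fgg infiltrating cells at 1 d (WT_1d_Mp, Fgg_1d_Mp). No Fgg sham group and no infiltrating cells of sham mice or of 7 d were analysed here. Each library pooled tissue around the lesion from 2 brains, with 40000 microglia or 25000 infiltrating cells sorted.

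Neutrophils carry their weapons in granules that are filled in order as the cell matures in the bone marrow. Azurophil granule proteins, such as elastase and myeloperoxidase, are made in promyelocytes, specific granule proteins, such as lactoferrin and cathelicidin, in myelocytes and metamyelocytes, and gelatinase granule proteins later. A mature neutrophil in tissue keeps proteins whose messenger RNA it no longer makes, so the messages of a neutrophil sample depend on the age of its cells. Neutrophils are among the first blood cells to enter an injured brain, and their surface carries high CD45 and CD11b, so the infiltrating-cell gate can hold them beside monocytes. No antibody to Ly6G is described for the sort.

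The members are spread over the genome (GRCm38, whole genes, from the first to the last annotated base). Ngp (chr9:110419747-110423012, plus strand), Camp (chr9:109847379-109849617, minus strand) and Mmp8 (chr9:7558456-7568485, plus strand) lie on chromosome 9, the first pair close together. Lcn2 (chr2:32384633-32388252, minus strand) and Mmp9 (chr2:164940780-164955850, plus strand) lie on chromosome 2. The others, all on the plus strand, are Csf3r (chr4:126024550-126044440), Elane (chr10:79886247-79888215), Mpo (chr11:87793581-87804413), Ly6g (chr15:75155240-75159126) and Retnlg (chr16:48872621-48874496).

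Levels are given in CPM, counts scaled to one common library total after a correction for composition. The deposited values were scaled by gene length, so levels of different genes can be set side by side. Library totals ran from 18896957 to 51875767 counts. In a single library a floor of 3 scaled counts corresponded to 0.0448 to 0.158 CPM, and a listed 0 was taken to allow a level up to that floor. Because of the scaling by gene length, a listed count is not a number of sequenced fragments. The floor, the fold bounds that rest on it and the counting intervals below are therefore approximate. They address counting error only. The Fgg messenger RNA had 0 counts in each wildtype library and 0 to 14 counts in the mutant ones. The knock-in alters the binding motif, and the paper describes normal fibrinogen concentrations in these mice. The Fgg counts therefore do not check the genotype labels. Itgam, which encodes the CD11b of the sort, had 229 to 455 CPM in all libraries. Marker genes separated the gates. Together, 9 microglia genes summed to between 2765 and 12261 CPM in microglia and to between 333 and 952 CPM in infiltrating cells. Conversely, 8 inflammatory monocyte genes summed to between 1946 and 2378 CPM in infiltrating cells and to between 7.17 and 156 CPM in microglia. Genes of astrocytes (4, at most 4.63 CPM) and of lymphocytes (6, at most 8.14 CPM) were low in both gates. In infiltrating cells, genes of border-associated macrophages (6) summed to 1166 to 2028 CPM and of dendritic cells (4) to 32.9 to 106 CPM, against 4.56 to 233 and 1.05 to 12.2 CPM in microglia. Most of that macrophage sum in infiltrating cells was Pf4, with 927 to 1825 CPM. Ms4a7 was also higher there without overlap, while Mrc1, Lyve1, Cd163 and Cbr2 overlapped between the gates. Oligodendrocyte genes (3) summed to 6.37 to 44.6 CPM in microglia and 11.6 to 25 CPM in infiltrating cells.

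The sham libraries lay far apart, with replicate 1 lowest and replicate 3 highest. Without Csf3r, the members together summed to 0.287 CPM in sham replicate 1, 15.8 CPM in sham replicate 2 and 144 CPM in sham replicate 3. In the same order, 34 other neutrophil genes summed to 5.77, 84.2 and 581 CPM, and 8 monocyte genes to 7.17, 16.3 and 67.9 CPM. The 6 genes of border-associated macrophages went the same way, with 4.56, 109 and 228 CPM. Among injured microglia, WT_7d_Mg replicate 1 with 124 CPM, WT_1d_Mg replicate 1 with 71.5 CPM and Fgg_1d_Mg replicate 1 with 60.6 CPM had the highest sums of members without Csf3r. Counts of called genes against sham, and the values of Csf3r, are therefore given with and without sham replicate 3. Each p-value measures the spread between libraries of pooled brains. These are bulk samples, so fewer cells of a type and less RNA per cell cannot be told apart.

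**Figure D1:**
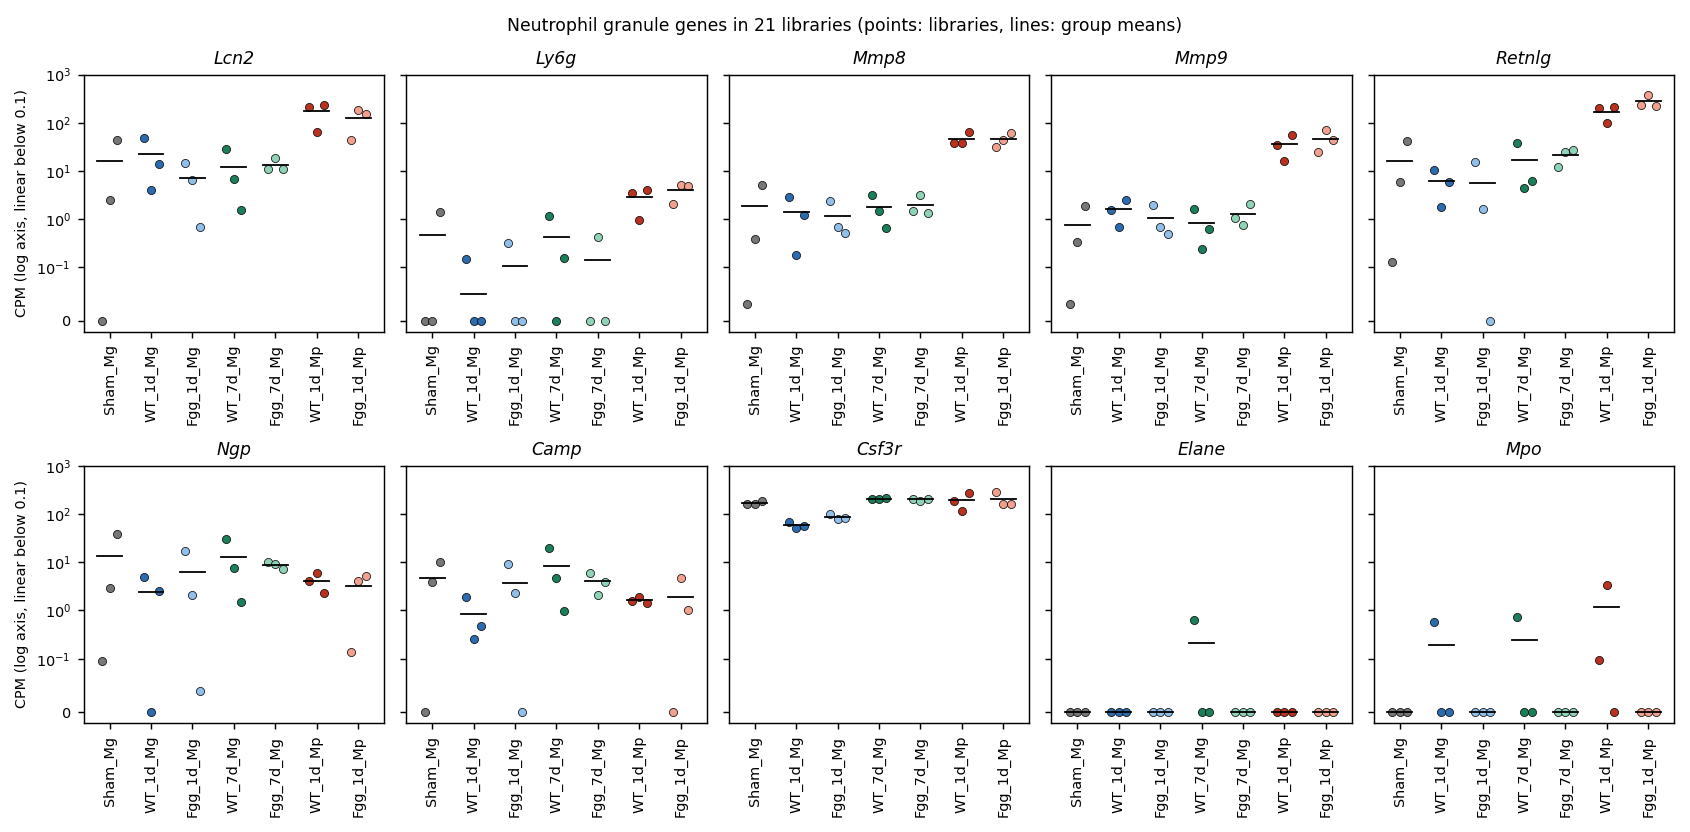
CPM of the 10 neutrophil granule genes (one panel each, log axis that is linear below 0.1 CPM) in the 7 groups, with 3 libraries per group as points and the group mean as a line. Lcn2, Ly6g, Mmp8, Mmp9 and Retnlg had their highest group means in infiltrating cells, Ngp and Camp did not, Csf3r was high in every group, and Elane and Mpo were at 0 in most libraries.

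The members fell into distinct patterns between infiltrating cells and microglia of the same injury at 1 d. In wildtype mice, 4 of 10 members were called higher in infiltrating cells (a log2 fold change past 1 in size with a Benjamini-Hochberg adjusted p below 0.05 in edgeR’s quasi-likelihood test), beside 5.61% of all 23815 genes tested, and 0 were called lower, beside 6.3%. These were Mmp8, Mmp9, Retnlg and Csf3r. In Fgg mice 5 of 10 were called higher, the same 4 and Lcn2, beside 6.96% of all genes, and 0 were called lower, beside 9.7%. At an unadjusted p under 0.05, 6 members were higher and 0 lower in each genotype. Over all 23815 genes, 6523 in wildtype and 7876 in Fgg mice had such a p in either direction. DESeq2 called 5 and 6 members higher and 0 lower, beside 1752 and 2136 genes called higher over all. The median log2 fold change of the 10 members was 2.76 in wildtype and 2.66 in Fgg mice, beside 0 and -0.131 over all genes tested.

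Mmp8 encodes neutrophil collagenase, a specific granule protease. It had 38.2, 37.6 and 62.9 CPM in the wildtype infiltrating-cell libraries and 31.5, 43.4 and 60.6 CPM in the Fgg ones. In microglia of the same day it had 2.82, 0.181 and 1.21 CPM in wildtype and 2.36, 0.680 and 0.522 CPM in Fgg mice. The groups of the 2 gates lay far apart with no overlap in either genotype. Its log2 fold change of infiltrating cells over microglia was 5.04 (SE 1.06, adjusted p = 0.0022) in wildtype and 5.18 (SE 1.05, adjusted p = 0.0014) in Fgg mice.

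Mmp9, or gelatinase B, is the protease that names the gelatinase granules, and activated macrophages make it too. It had 35.2, 15.9 and 55.9 CPM in wildtype and 24.7, 69.5 and 44.6 CPM in Fgg infiltrating cells. In microglia it had 1.57, 0.687 and 2.54 CPM in wildtype and 2.00, 0.680 and 0.482 CPM in Fgg mice at 1 d. Again no microglia library came near an infiltrating-cell library. The log2 fold change was 4.48 (SE 0.864, adjusted p = 0.0011) in wildtype and 5.39 (SE 0.894, adjusted p = 0.00022) in Fgg mice.

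Retnlg encodes resistin-like gamma, a secreted protein made in bone marrow and by neutrophils. Its level was 199, 97.7 and 212 CPM in wildtype infiltrating cells and 231, 378 and 227 CPM in Fgg infiltrating cells. In microglia it was 10.5, 1.77 and 5.93 CPM in wildtype and 15.2, 1.64 and 0 CPM in Fgg mice at 1 d. It was therefore among the most abundant members in infiltrating cells, beside Lcn2 and Csf3r. The log2 fold change was 4.81 (SE 1.42, adjusted p = 0.025) in wildtype and 5.60 (SE 1.46, adjusted p = 0.0092) in Fgg mice. The wildtype call was lost when WT_1d_Mg replicate 2 (adjusted p = 0.1), WT_1d_Mg replicate 3 (adjusted p = 0.082) or WT_1d_Mp replicate 3 (adjusted p = 0.051) was left out.

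Lcn2 encodes lipocalin-2, which binds bacterial siderophores, lies in specific granules and is also an acute phase gene of astrocytes and endothelium. It had 212, 65.0 and 237 CPM in wildtype and 43.0, 187 and 152 CPM in Fgg infiltrating cells. Microglia at 1 d had 49.1, 4.02 and 13.9 CPM in wildtype and 14.7, 6.57 and 0.683 CPM in Fgg mice. The groups did not overlap, but the libraries spread widely. The log2 fold change was 4.10 (SE 1.43, adjusted p = 0.046) in Fgg mice, a call that was lost without any single library other than Fgg_1d_Mp replicate 1, with adjusted p = 0.061, 0.12 and 0.13 without Fgg_1d_Mg replicates 1, 2 and 3 and 0.093 and 0.072 without Fgg_1d_Mp replicates 2 and 3. In wildtype mice it was 2.94 (SE 1.35, adjusted p = 0.17), not past the threshold, although the fit of the compared groups only called it (2.98, adjusted p = 0.044).

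Ly6g encodes the surface antigen that defines mouse neutrophils in flow cytometry. It was scarce everywhere, with 3.44, 0.948 and 4.10 CPM in wildtype and 2.08, 5.16 and 4.84 CPM in Fgg infiltrating cells. In microglia at 1 d it had counts in only 1 library of each genotype, 0.153 CPM in WT_1d_Mg replicate 1 and 0.328 CPM in Fgg_1d_Mg replicate 1. No library of one gate overlapped the other. At log2 fold changes of 5.70 (SE 2.16, adjusted p = 0.086) in wildtype and 5.01 (SE 1.99, adjusted p = 0.083) in Fgg mice it was not called by edgeR in the fit of all groups. The DESeq2 Wald test called it in both genotypes, with adjusted p = 0.038 and 0.049. So did edgeR with only the compared groups fitted, with adjusted p = 0.019 and 0.047, and, in Fgg mice, edgeR without Fgg_1d_Mg replicate 1, with adjusted p = 0.048.

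Csf3r encodes the receptor for granulocyte colony-stimulating factor, which keeps neutrophils alive and mobile. It was the only called member with a high level in microglia. In infiltrating cells it had 191, 116 and 279 CPM in wildtype and 283, 161 and 165 CPM in Fgg mice, against 68.7, 50.5 and 57.1 CPM and 99.5, 80.3 and 82.7 CPM in microglia of 1 d. Its log2 fold change was 1.73 (SE 0.255, adjusted p = 7.7e-05) in wildtype and 1.21 (SE 0.251, adjusted p = 0.0016) in Fgg mice. The gap was thus smaller than for the granule proteases in both genotypes.

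**Figure D2:**
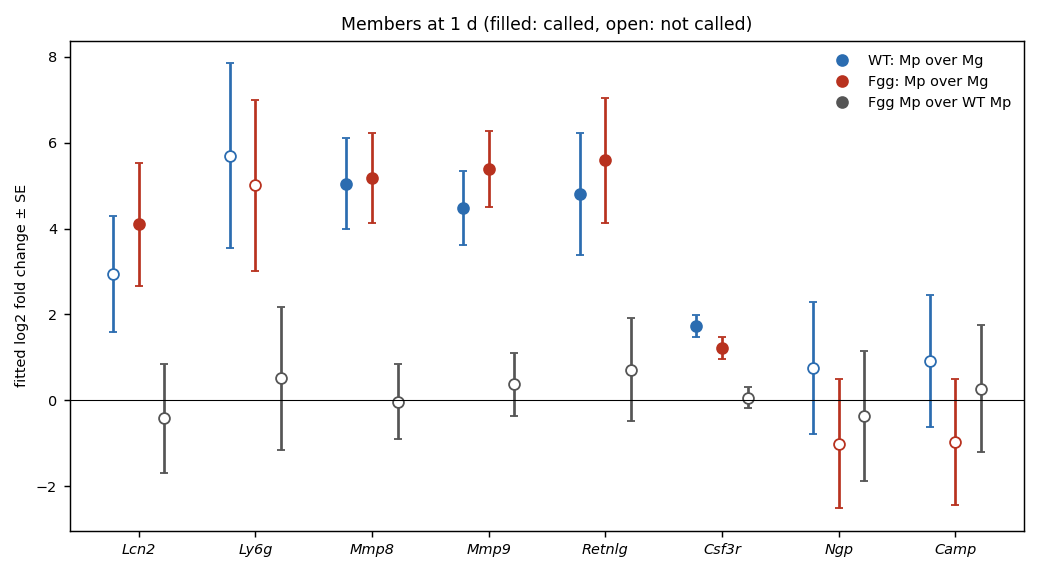
Fitted log2 fold changes with standard errors at 1 d for 8 members, for infiltrating cells (Mp) over microglia (Mg) in WT (blue) and Fgg mice (red) and for Fgg over WT infiltrating cells (grey), with filled points for called genes. The Mp over Mg values of Mmp8, Mmp9 and Retnlg lie near 5, those of Ngp and Camp within 1 SE of 0, and the genotype values between -0.42 and 0.72.

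Ngp and Camp behaved otherwise. Ngp encodes neutrophilic granule protein, a cystatin-related protein of specific granules, and Camp encodes cathelicidin, an antimicrobial peptide of the same granules. Ngp had 4.14, 5.95 and 2.26 CPM in wildtype and 0.136, 4.12 and 5.21 CPM in Fgg infiltrating cells. Microglia at 1 d had 4.85, 0 and 2.50 CPM in wildtype and 16.9, 2.14 and 0.0402 CPM in Fgg mice, so the gates overlapped in both genotypes. The log2 fold change of infiltrating cells over microglia was 0.75 (SE 1.54, 95% interval -2.48 to 3.97, adjusted p = 0.86) in wildtype and -1.01 (SE 1.51, 95% interval -4.17 to 2.14, adjusted p = 0.7) in Fgg mice. For Camp it was 0.91 (SE 1.53, 95% interval -2.30 to 4.12, adjusted p = 0.79) and -0.97 (SE 1.47, 95% interval -4.03 to 2.10, adjusted p = 0.71). These 4 intervals reach past a 4-fold change in either direction, so neither a difference nor its lack is shown. Without Fgg_1d_Mg replicate 1, the Fgg values became 1.49 for Ngp and 0.74 for Camp.

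Expressed as a share of the infiltrating-cell mean, the wildtype microglia mean at 1 d was 1.80% for Ly6g, 3.04% for Mmp8, 3.58% for Retnlg, 4.47% for Mmp9, 13.1% for Lcn2 and 30.1% for Csf3r, and it was 53.0% for Camp and 59.5% for Ngp. In Fgg mice the same shares were 2.72% for Ly6g, 2.63% for Mmp8, 2.01% for Retnlg, 2.28% for Mmp9, 5.74% for Lcn2 and 43.1% for Csf3r, and 196% for Camp and 202% for Ngp. Lactoferrin (Ltf), a specific granule gene outside the members, lay between Lcn2 and Camp, with 30.4% in wildtype and 31.0% in Fgg mice. Most shares moved by more than 1.5 times when single libraries were left out. In wildtype mice they then ran from 30.4% to 89.3% for Ngp, 22.1% to 71.7% for Camp, 5.24% to 18.4% for Lcn2, 1.5% to 4.36% for Mmp8, 3.16% to 6.24% for Mmp9, 2.27% to 4.85% for Retnlg, 0% to 2.70% for Ly6g, 25% to 38.4% for Csf3r and 21.1% to 45.5% for Ltf. In Fgg mice they ran from 34.5% to 302% for Ngp, 59.2% to 733% for Camp, 2.84% to 8.34% for Lcn2, 1.33% to 3.36% for Mmp8, 1.26% to 3.04% for Mmp9, 0.294% to 3.02% for Retnlg, 0% to 4.07% for Ly6g, 39.1% to 53.7% for Csf3r and 3.68% to 61.4% for Ltf. For Mmp8, Mmp9, Retnlg and Ly6g the share thus stayed at or below 6.24% with any single library left out. No test was made of these shares.

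**Figure D3:**
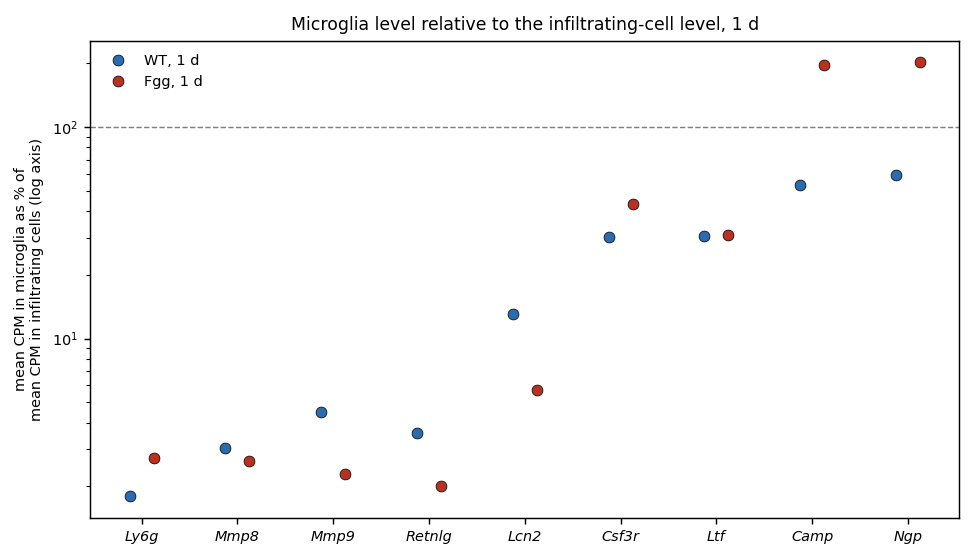
Mean CPM in microglia as a percent of mean CPM in infiltrating cells at 1 d (log axis) for 8 members and Ltf in WT (blue) and Fgg mice (red), each a ratio of means of 3 libraries, with equal levels marked by the dashed line at 100%. Ly6g, Mmp8, Mmp9 and Retnlg lie below 5% in both genotypes, and Ngp and Camp lie at 53.0% and above.

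Within a library the balance of these genes does not depend on depth. Ngp, Camp and Ltf together were 0.0209 to 0.197 times the sum of Mmp8 and Mmp9 in the 6 infiltrating-cell libraries. In 13 of the 15 microglia libraries the ratio was above 1, from 1.05 in WT_1d_Mg replicate 3 (95% counting interval 0.788 to 1.41) to 11.3 in WT_7d_Mg replicate 1 (9.16 to 14.0). Those below 1 were WT_1d_Mg replicate 2 with 0.292 (7 against 24 counts) and Fgg_1d_Mg replicate 3 with 0.0400 (1 against 25 counts), and sham replicate 1 rested on 3 against 2 counts. The sham libraries with counts to speak of had ratios of 10.5 in replicate 2 and 8.68 in replicate 3, and the Fgg libraries of 7 d had 7.03, 3.21 and 3.94. At 7 d each microglia library of either genotype had a ratio of at least 2.94. This is a description over libraries and carries no test. The intervals treat the scaled values as counts and address counting error only.

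**Figure D4:**
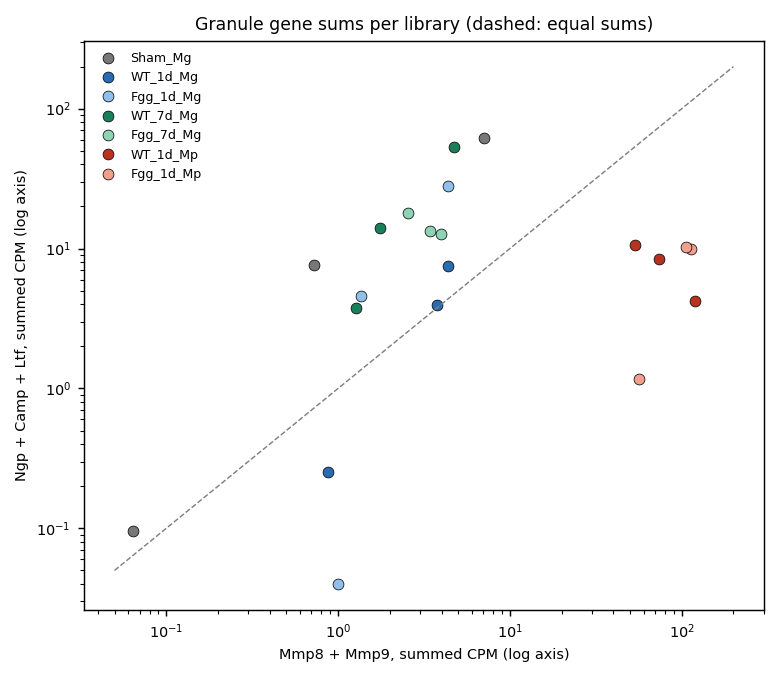
Summed CPM of Ngp, Camp and Ltf (log y axis) against summed CPM of Mmp8 and Mmp9 (log x axis) in the 21 libraries, coloured by group, with a dashed line for equal sums. The 6 infiltrating-cell libraries lie to the right and below the line, and most microglia libraries lie above it.

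Sequence upstream of Ngp, Camp, Ltf and Mmp8, all on chromosome 9, is shown because these genes stand on the opposite sides of that ratio, and of Elane as an azurophil gene at 0 counts in most libraries. RefSeq promoter windows of 300 bases on GRCm38.p6, from 250 bases before to 50 after each gene start, were found for 9 of 10 members. The windows were searched on both strands for the letters GAGGAAGT, a form of the PU.1 site, and TTGCNNAA, part of a C/EBP site, spellings picked after others had been tried. Of all 32851 windows, 3.2% held the first and 10.8% the second. Among the 9 members, 4 held the first (Ly6g, Mmp8, Elane, Mpo) and 5 the second (Lcn2, Ly6g, Ngp, Mmp8, Retnlg). A member was counted if any of its windows matched, while the shares are per window. With spellings picked after others had been tried, these counts cannot show an excess over the shares. Ltf held the second. The stretches end before the first annotated base of each gene and are printed in the direction of the gene, with matched letters in capitals. They are Ngp, chr9:110419558-110419746, plus strand, Camp, chr9:109849618-109849706, minus strand, Ltf, chr9:111019042-111019270, plus strand, Mmp8, chr9:7558179-7558428, plus strand, and Elane, chr10:79886062-79886246, plus strand.
Ngp: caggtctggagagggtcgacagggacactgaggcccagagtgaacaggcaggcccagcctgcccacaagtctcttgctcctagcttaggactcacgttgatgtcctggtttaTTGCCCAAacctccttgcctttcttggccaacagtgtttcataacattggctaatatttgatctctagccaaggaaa
Camp: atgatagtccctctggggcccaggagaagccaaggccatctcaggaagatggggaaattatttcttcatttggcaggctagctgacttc
Ltf: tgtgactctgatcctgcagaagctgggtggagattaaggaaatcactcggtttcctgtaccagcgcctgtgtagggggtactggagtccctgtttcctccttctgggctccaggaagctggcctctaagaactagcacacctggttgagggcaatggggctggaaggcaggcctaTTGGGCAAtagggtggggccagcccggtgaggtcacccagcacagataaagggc
Mmp8: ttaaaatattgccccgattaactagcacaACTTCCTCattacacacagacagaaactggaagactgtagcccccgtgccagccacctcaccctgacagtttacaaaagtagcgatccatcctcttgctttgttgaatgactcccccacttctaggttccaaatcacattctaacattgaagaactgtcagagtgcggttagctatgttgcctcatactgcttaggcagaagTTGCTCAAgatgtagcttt
Elane: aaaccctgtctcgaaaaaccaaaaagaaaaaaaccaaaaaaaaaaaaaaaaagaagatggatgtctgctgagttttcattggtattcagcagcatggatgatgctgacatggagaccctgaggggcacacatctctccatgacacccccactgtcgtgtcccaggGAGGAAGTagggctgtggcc
Ngp held TTGCCCAA and Ltf its reverse complement TTGGGCAA, Mmp8 held one match to each motif, Elane held GAGGAAGT and the Camp window held neither. A second match in the Ngp window lay beyond the printed stretch. These matches describe letters and are not evidence of a bound factor.

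Elane and Mpo, the azurophil granule members, encode neutrophil elastase and myeloperoxidase. Elane had 13 counts in WT_7d_Mg replicate 1 (0.621 CPM) and 0 counts in the other 20 libraries. Mpo had counts in 4 libraries, namely 0.573 CPM in WT_1d_Mg replicate 1, 0.717 CPM in WT_7d_Mg replicate 1, 0.0968 CPM in WT_1d_Mp replicate 1 and 3.42 CPM in WT_1d_Mp replicate 2. Both were listed at 0 in every Fgg library. Since most libraries were at 0, no fold change is given for either gene. An antisense gene overlaps Mpo, and the counting was not stated to use strand. A related azurophil gene, Prtn3, which encodes proteinase 3, was present in each infiltrating-cell library, with 1.52, 0.579 and 4.64 CPM in wildtype and 1.4, 7.43 and 5.63 CPM in Fgg mice. It had 0 counts in the WT_1d_Mg libraries, so it was at least 19.8-fold higher in wildtype infiltrating cells (group mean against a floor of 3 counts per library, adjusted p = 0.013). In Fgg mice 533 counts stood against 3 in microglia, a ratio of 238 (95% counting interval 80.9 to 1160, adjusted p = 0.0086). Ctsg, which encodes cathepsin G, another azurophil protease, had 0.218, 0 and 0.451 CPM in wildtype and 0, 0.0494 and 0 CPM in Fgg infiltrating cells and 0 counts in microglia.

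In microglia, most members were not called against sham. At 1 d, 1 of 10 members was called lower than sham in wildtype mice, beside 4.21% of all genes, and 0 higher, beside 8.05%. In Fgg mice 0 of 10 were called against sham at 1 d, beside 6.64%, with 1 member lower at an unadjusted p under 0.05 and 1 called by DESeq2. Over all 23815 genes, 4861 had such a p in either direction, and DESeq2 called 1332 higher and 796 lower. At 7 d, 0 of 10 were called against sham in wildtype, beside 2.02%, and 0 of 10 in Fgg mice, beside 0.663%. In either, 0 members had an unadjusted p under 0.05, beside 2783 and 1808 of all genes, and 0 were called by DESeq2. The sham libraries themselves spread from 0 to 44.8 CPM for Lcn2, from 0.0956 to 37.9 CPM for Ngp, from 0 to 10.3 CPM for Camp and from 0.127 to 42.5 CPM for Retnlg. With such a spread, the lack of a call does not show a lack of change. Leaving out sham replicate 1 changed no member call against sham in either genotype at 1 d or 7 d. Without sham replicate 3, 0 members were called in Fgg microglia at 1 d or in either genotype at 7 d, as with it. In wildtype mice Mmp9 was then also called higher at 1 d, where it had 1.57, 0.687 and 2.54 CPM against 0.0319 and 0.342 CPM in the other sham libraries and 1.88 CPM in replicate 3.

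The member that moved was Csf3r. Sham microglia had 158, 160.0 and 187 CPM, wildtype microglia at 1 d 68.7, 50.5 and 57.1 CPM, and wildtype microglia at 7 d 204, 209 and 216 CPM. In Fgg mice the values were 99.5, 80.3 and 82.7 CPM at 1 d and 203, 189 and 209 CPM at 7 d. The 1 d libraries of either genotype lay below each sham library and each 7 d library, with no overlap. In wildtype microglia Csf3r fell by 1.52 on the log2 scale from sham to 1 d (SE 0.253, adjusted p = 0.00023) and was higher at 7 d than at 1 d by 1.84 (SE 0.256, adjusted p = 1e-04), the 1 of 10 members called higher, beside 2.68% of all genes. In Fgg microglia it was also the 1 of 10 called higher at 7 d than at 1 d, beside 0.663% of all genes, by 1.20 (SE 0.251, adjusted p = 0.006), and its difference of -0.94 from sham at 1 d (SE 0.250, adjusted p = 0.018) missed the fold threshold. With DESeq2 size factors, which also moved the median of the genes with a mean of at least 1 CPM from 0.0499 to -0.076, that difference was -1.07 and was called, as it was without Fgg_1d_Mg replicate 1, at -1.05. At 7 d it was 0.32 (SE 0.248, adjusted p = 0.66) above sham in wildtype and 0.25 (SE 0.248, adjusted p = 0.91) in Fgg mice. Without sham replicate 3 the Csf3r differences from sham were -1.44 (adjusted p = 0.0013) in wildtype and -0.86 (adjusted p = 0.066) in Fgg mice at 1 d, and 0.40 (adjusted p = 0.68) and 0.33 (adjusted p = 0.94) at 7 d.

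Csf3r was high in microglia also where other neutrophil genes were near 0. Sham replicate 1 had 158 CPM of Csf3r with 0 counts of Lcn2, Ly6g and Camp, and 0.287 CPM in all other members together. Csf3r was 99.8% of the summed members there and 56.5% in sham replicate 3. The 9 microglia genes summed to 11134 to 12261 CPM in sham. At 1 d the sum was 2765 to 4654 CPM in WT_1d_Mg and 5317 to 6887 CPM in Fgg_1d_Mg. At 7 d it was 7128 to 8018 CPM in WT_7d_Mg and 8143 to 9377 CPM in Fgg_7d_Mg. Like Csf3r, the sum was lowest at 1 d in each genotype, but unlike Csf3r it was still below sham at 7 d. Not each gene followed the sum, as Olfml3 had 318, 344 and 227 CPM in WT_1d_Mg against 244, 241 and 368 CPM in sham. The part of the microglia genes in the Csf3r values was not tested.

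**Figure D5:**
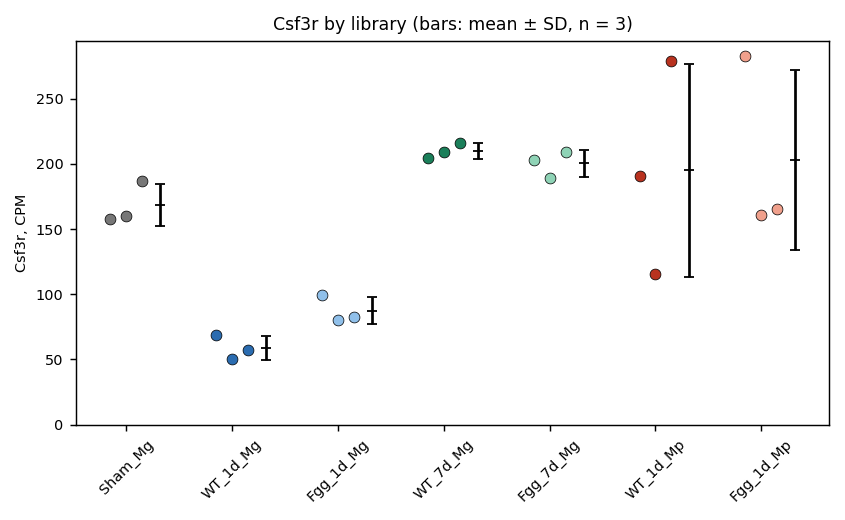
Csf3r in CPM (linear axis from 0) in the 7 groups, with points for the 3 libraries of a group and a mean with SD beside them. The 6 microglia libraries of 1 d lie between 50.5 and 99.5 CPM, below each of the other 15 libraries.

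Genotype was compared to see whether removing the CD11b/CD18-binding motif of fibrinogen changed these genes. In infiltrating cells 0 of 10 members were called (past the same fold limit at an adjusted p below 0.1), beside 0.453% of all genes, with 1 member at an unadjusted p under 0.05 and 0 called by DESeq2. That member was Mpo, which had counts in 2 wildtype libraries. Over all 23815 genes, 2748 had such an unadjusted p. For Mmp8 the Fgg minus wildtype log2 difference was -0.03 (95% interval -1.85 to 1.78), for Mmp9 0.37 (-1.15 to 1.90), for Lcn2 -0.42 (-3.05 to 2.20), for Ly6g 0.51 (-2.98 to 3.99) and for Csf3r 0.06 (-0.461 to 0.574). The intervals of the granule genes leave room for a change of more than 2-fold in either direction, while that of Csf3r stays within it. Retnlg had 227 to 378 CPM in Fgg against 97.7 to 212 CPM in wildtype mice, without overlap. Its difference of 0.72 (SE 1.20, 95% interval -1.80 to 3.23, adjusted p = 0.94) was within the error of the fit. The share of all genes that separated in this way is not given, so this does not mark Retnlg out. Fgg_1d_Mp replicate 1 had the lowest Ngp (0.136 CPM), Camp (0 CPM) and Lcn2 (43.0 CPM) of the infiltrating-cell libraries and, with it left out, the differences of Lcn2, Ngp and Mmp8 became 0.04, 0.24 and 0.23.

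In microglia 0 of 10 members were called between genotypes at 1 d, beside 0.0546% of all genes, and 0 of 10 at 7 d, beside 0.0378%. At an unadjusted p under 0.05 there was 1 member at 1 d and 0 at 7 d, beside 1208 and 795 of 23815 genes. DESeq2 called 0 members at both times. The member at 1 d was Csf3r, higher in Fgg microglia by 0.57 (SE 0.249, 95% interval 0.0536 to 1.09, adjusted p = 0.89), with 3 of 3 Fgg libraries above the 3 wildtype ones. At 7 d its difference was -0.06 (95% interval -0.582 to 0.453). The difference between these genotype effects, tested as an interaction, was -0.64 (SE 0.351, adjusted p = 1). No member was called in that interaction, beside 0% of all genes, or in the interaction of genotype with cell type at 1 d, beside 0.0462%, with 0 members at an unadjusted p under 0.05 and 0 called by DESeq2 in either.

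The other neutrophil genes set the members in context. Of 34 such genes, 24 were called higher in wildtype infiltrating cells than in microglia, beside 5.61% of all genes. In Fgg mice 28 were called higher, beside 6.96%. In either genotype 0 were called lower, beside 6.3% and 9.7%. At an unadjusted p under 0.05, 27 and 28 were higher and 0 lower, beside 6523 and 7876 of 23815 genes in either direction. DESeq2 called 25 and 28, all higher, beside 1752 and 2136 genes called higher over all. Their median log2 fold change was 4.28 in wildtype and 5.54 in Fgg mice. Prtn3, Cebpe and Wfdc21 led in wildtype mice by fitted size. Cebpe, the transcription factor of specific granule formation, had 0 counts in the WT_1d_Mg libraries and was at least 11.2-fold higher in infiltrating cells. Wfdc21, a small secreted antiprotease-like gene, was higher by 5.70 (SE 1.30, adjusted p = 0.0045). In Fgg mice Prtn3, Cxcr2 and Slpi led. Cxcr2, the chemokine receptor that brings neutrophils out of blood, was higher by 6.97 (SE 1.12, adjusted p = 0.00015) in Fgg and 5.31 (SE 1.03, adjusted p = 0.0011) in wildtype mice. Slpi, an inhibitor of neutrophil elastase, was higher by 6.94 (SE 1.07, adjusted p = 0.00011) in Fgg mice. Ltf, in contrast, was not called, at 1.72 (SE 1.5, adjusted p = 0.49) and 1.63 (SE 1.47, adjusted p = 0.46).

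The most abundant of these genes were S100a8 and S100a9, the subunits of calprotectin, which are a large part of neutrophil cytosol. S100a8 had 3793, 1925 and 7311 CPM in wildtype and 1329, 2987 and 2478 CPM in Fgg infiltrating cells. Microglia at 1 d had 287, 75.6 and 274 CPM in wildtype and 133, 16.2 and 12.4 CPM in Fgg mice. The log2 fold change of infiltrating cells over microglia was 4.35 (SE 1.35, adjusted p = 0.033) in wildtype and 5.39 (SE 1.42, adjusted p = 0.0095) in Fgg mice, and that of S100a9 was 3.86 (SE 1.39, adjusted p = 0.068) and 4.68 (SE 1.45, adjusted p = 0.025). Between genotypes in infiltrating cells, 0 of the 34 genes were called, beside 0.453% of all genes, and 0 by DESeq2. None had an unadjusted p under 0.05, beside 2748 of 23815 genes. The Fgg minus wildtype difference was -0.94 for S100a8 (SE 1.18, adjusted p = 0.85) and -1.08 for S100a9 (SE 1.25, adjusted p = 0.82). In microglia 0 of the 34 were called between genotypes at 1 d or 7 d by edgeR, beside 0.0546% and 0.0378% of all genes, or by DESeq2. At an unadjusted p under 0.05 there were 8 lower in Fgg mice at 1 d and 0 at 7 d. Over all 23815 genes, 1208 and 795 had such a p in either direction. The 34 genes summed to 148 to 920 CPM in WT_1d_Mg and to 33.1 to 326 CPM in Fgg_1d_Mg, so these groups overlapped.

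In wildtype microglia at 1 d, 7 of the 34 were called higher than sham, beside 8.05% of all genes, and 13 without sham replicate 3. The 7 were Mmp25, Slpi, Il1r2, Trem1, Asprv1, Clec4d and Clec4e. The count was 4 without sham replicate 1, and 3 without sham replicate 2 or without WT_1d_Mg replicate 1. Clec4d and Clec4e, which encode C-type lectins of neutrophils, monocytes and macrophages, rose by 4.33 (SE 0.725, adjusted p = 0.00023) and 4.81 (SE 0.891, adjusted p = 0.00063). Il1r2, a decoy receptor for interleukin-1, had 129 counts in the 3 libraries of 1 d against 2 in sham, a pooled ratio of 79.1 (95% counting interval 21.5 to 660, adjusted p = 0.0082 in the edgeR fit). Most of them were in WT_1d_Mg replicate 1, with 99 counts against 19 and 11 in replicates 2 and 3 (3.78, 0.687 and 0.429 CPM). The interval leaves out this spread between libraries. The 8 monocyte genes summed to 87.4 to 156 CPM against 7.17 to 67.9 CPM in sham, but most of that was Fn1, which encodes fibronectin, with 70.2 to 142 CPM against 0.637 to 4.35 CPM. Without Fn1 the sums were 9.59, 17.1 and 74.7 CPM against 6.53, 15 and 63.5 CPM, and the groups overlapped. The part of these genes was not tested. In Fgg microglia 1 of the 34, Clec4d, was called, at 2.6 (SE 0.703, adjusted p = 0.02), beside 6.64% of all genes called in either direction. Without sham replicate 1, sham replicate 2 or Fgg_1d_Mg replicate 1, 0 genes were called higher, whereas 3 were without sham replicate 3 and 2 without Fgg_1d_Mg replicate 3. At 7 d 0 of the 34 were called against sham by edgeR, beside 2.02% of all genes in wildtype and 0.663% in Fgg mice. DESeq2 called 2 in wildtype and 1 in Fgg mice. Over all genes it called 718 higher and 102 lower in wildtype and 305 higher and 42 lower in Fgg mice. At an unadjusted p under 0.05 there were 4 higher and 1 lower in wildtype and 4 higher in Fgg mice. Over all 23815 genes, 2783 and 1808 had such a p in either direction. Without sham replicate 3, 1 gene was called in each genotype.

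From 1 d to 7 d in wildtype microglia, 4 of the 34 were called lower, beside 4.38% of all genes, and 1 higher, beside 2.68%. The 1 higher call is thus near the share over all genes. Asprv1 (-4.37, SE 1.16, adjusted p = 0.018), Clec4e (-3.97, SE 0.859, adjusted p = 0.0042), Clec4d (-3.62, SE 0.705, adjusted p = 0.0018) and Slpi fell. Olfm4, which encodes olfactomedin 4 of specific granules, rose in both genotypes, by 3.41 (SE 0.817, adjusted p = 0.009) in wildtype and 4.59 (SE 0.861, adjusted p = 0.0026) in Fgg mice. In Fgg mice it was the 1 of 34 called higher, beside 0.663% of all genes. Without WT_7d_Mg replicate 2 or 3, 2 genes were called lower, and without WT_1d_Mg replicate 3 Olfm4 was not called in wildtype mice. Olfm4 had 5.50, 2.36 and 5.49 CPM in WT_7d_Mg and 2.71, 4.2 and 4.91 CPM in Fgg_7d_Mg, against 0.779 to 0.987 CPM in sham. At 1 d it had 0.534, 0.434 and 0.273 CPM in WT_1d_Mg and 0.313, 0.126 and 0 CPM in Fgg_1d_Mg, so the libraries of 7 d lay above all sham and 1 d microglia libraries.

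The genes most like Ly6g were found by Pearson correlation of log2 CPM over the 21 libraries among 12301 genes with a mean of at least 1 CPM. They were Pde7b (r = 0.954), Hp (0.939), Cd177 (0.936), Chil3 (0.935) and Pi16 (0.934), of which Cd177 and Hp stood on the list of other neutrophil genes and Chil3 on that of monocyte genes. Among members r was 0.929 for Mmp8, 0.912 for Mmp9, 0.881 for Retnlg, 0.843 for Lcn2, 0.453 for Csf3r, 0.190 for Ngp and 0.101 for Camp. Within the 15 microglia libraries Ngp and Camp had r = 0.93 with each other, and r was 0.90 between Ngp and Retnlg and 0.89 between Ngp and Mmp8. These are descriptions over libraries that share their gate and depth, and most of the spread over all 21 is between the gates.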

How the data were processed

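RNA of sorted brain myeloid cells was sequenced in 21 libraries. The authors deposited expected counts per gene, made with the nf-core/rnaseq pipeline (Trim Galore, salmon, GRCm38), scaled for transcript length and not normalized for depth. The submitters' processing notes name R 4.2.0 and DESeq2 1.36.0. Values were rounded to whole counts, and genes with at least 5 counts over all libraries (23815) were fitted with 1 mean per group over all 21 libraries in edgeR 4.0.16 (R 4.3.3, quasi-likelihood test, TMM scaling, Benjamini-Hochberg adjustment). CPM used the TMM factors. DESeq2 1.42.0 (Wald test), other scalings, filters, thresholds and samples, and leaving out each library, were alternatives. SE is the log2 fold change over the root of F. Between genotypes the adjusted p threshold was 0.1, otherwise 0.05. Gene symbols came from GENCODE M21, where 45143 of 45706 genes matched. The members and lists were chosen with earlier results of these data known. Named besides the members were 6 neutrophil genes (Ltf, Prtn3, Ctsg, S100a8, S100a9, Cxcr2) and the 3 called genes of the list of 34 with the largest change and no overlap per comparison; other names, and the values shown for ratios and Olfm4, were chosen after values were seen. No 2 replicates agreed within sampling noise. On simulated counts for wildtype infiltrating cells against microglia, 66% of 200 genes changed by a log2 fold of 2 and 90.5% of those changed by 4 were recovered.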

Additional observations from a re-analysis of the deposited data

How the results depend on the processing

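Of the counts of called genes, those of the members in infiltrating cells against microglia (4 in wildtype, 5 in Fgg mice) stayed within 1.5 times under each setting tried, between 3 and 4 and between 4 and 5 when single libraries were left out. For members against sham at 1 d, leaving out single libraries gave 1 to 2 calls in wildtype and 0 to 1 in Fgg microglia, where DESeq2 and DESeq2 size factors each gave 1 in place of 0, and that scaling moved the share of higher among all calls from 82.7% to 71.7%. At a fold limit of 1.5, 0 members were called in Fgg microglia at 7 d against 1 d, in place of 1. For the 34 other neutrophil genes, the fit of the compared groups only gave 3 in WT_1d_Mg against sham (7 in the fit of all groups), 1 in WT_7d_Mg against sham (0) and 0 in Fgg_1d_Mg against sham (1). DESeq2 gave 2 in WT_7d_Mg, 3 in Fgg_1d_Mg and 1 in Fgg_7d_Mg against sham, and 2 in Fgg microglia at 7 d against 1 d. The stricter filter on low counts gave 2 in Fgg_1d_Mg against sham and 2 in Fgg microglia over time, no filter gave 2 in the former, and an adjusted p under 0.1 gave 1 in WT_7d_Mg and 3 in Fgg_1d_Mg against sham and 2 in Fgg microglia over time. Leaving out single libraries gave 3 to 13 in WT_1d_Mg, 0 to 3 in Fgg_1d_Mg, 0 to 1 in WT_7d_Mg and 0 to 1 in Fgg_7d_Mg against sham, and 3 to 6 in wildtype microglia over time. For infiltrating cells against microglia it gave 17 to 22 in wildtype (24 with all libraries) and 24 to 28 in Fgg mice (28). The cause of these changes was not tested.

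In infiltrating cells, the log2 differences between genotypes of several members changed sign between settings. Without single libraries they ran from -0.81 to 0.043 for Lcn2, -0.90 to 0.24 for Ngp, -1.56 to 0.88 for Camp, -0.30 to 0.25 for Mmp8, -0.043 to 0.85 for Mmp9 and -0.20 to 0.41 for Csf3r. Those of Fgg infiltrating cells against microglia ran from -1.58 to 1.49 for Ngp and from -2.80 to 0.74 for Camp. Mmp8 between genotypes was 0.0096 in the fit of the compared groups only.

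With a replicate block the counts of members called were 4 and 5 in infiltrating cells against microglia, as without it, and Mmp8 between genotypes was 7.651e-05. Libraries with the same number had a mean correlation of deviations of 0.0312 over 63 pairs (from -0.0564 to 0.423), with 9 of them over 0.1, against -0.0156 over 126 pairs with other numbers, with 2 over 0.1. Since not every same-number pair was over 0.1 and the labels give the number no meaning, it was not taken as a pairing. Whether same-numbered microglia and infiltrating cells of 1 d came from the same brains is not stated. Their correlations were 0.138, 0.175 and 0.0301 in wildtype and -0.0046, 0.0735 and 0.0346 in Fgg mice, so a pairing is not excluded. With the block, 22 of the other neutrophil genes were called in wildtype infiltrating cells (24 without it) and 6 in WT_1d_Mg against sham (7 without it).

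Precision was limited by the spread between libraries (common biological coefficient of variation 0.643). Between gates, the SE of the called members other than Csf3r was at least 0.864 on the log2 scale.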
